A study of Mus musculus with 3 samples.

Results

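Somatostatin and its 5 receptors were followed through single-cell RNA-seq of the developing mouse retina. The 6 genes (*Sst*, *Sstr1*, *Sstr2*, *Sstr3*, *Sstr4* and *Sstr5*) were chosen by name out of 19946 genes with a row in at least 1 of 3 raw count tables. Of the 6 genes, 4 had a row in some table. The explant table listed *Sst*, *Sstr1*, *Sstr2* and *Sstr5* among 18823 genes, the P0 table *Sstr2* and *Sstr5* among 17851, and the P14 table *Sst*, *Sstr1* and *Sstr2* among 17849. *Sstr3* and *Sstr4*, and the other genes in the tables that do not list them, are not analysed here.

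Somatostatin is a small peptide cut from a longer precursor, and in the adult retina it is known as a transmitter of amacrine cells. Its receptors are G protein-coupled receptors that act through Gi/o proteins to lower cyclic AMP, open GIRK potassium channels and close voltage-gated calcium channels. Cortistatin, a related peptide, binds the same receptors. During retinal development, *Sstr2* is known to mark neurogenic progenitors, the cells that leave the progenitor pool to become neurons.

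Each library pooled samples that carried a MULTI-seq barcode, a lipid-anchored oligonucleotide that names the sample of each cell. The explants were wild-type CD1 retinas taken at embryonic day 14 and grown for 6 days, to an age equal to P0, with 0, 5, 50 or 500 nM of a small-molecule Sstr2 agonist, 2 samples at each dose. The retinas came from littermates on a mixed C57BL/6 and CD1 background, with a targeted deletion in *Sstr2* (allele em1 of C57BL/6NCrl origin, outbred to CD1), and at P0 and again at P14 there were 1 wild-type, 2 heterozygous and 2 knockout samples. The words explant and retina stand for 1 sample each, and samples of a group are called a and b. How many retinas each sample pooled, and from how many litters, is not stated, so p-values measure the spread between these samples only.

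The explant library held 5607 cells and 22638572 unique molecular identifiers (UMIs, 1 per captured transcript), the P0 library 5706 cells and 50516460 UMIs, and the P14 library 3298 cells and 16851397 UMIs. The 3 pairs of libraries shared 9, 4 and 7 cell barcodes. Cell types were the annotation of the authors. *Neurog2* and *Atoh7*, transcription factors of neurogenic cells, were at 193.1 and 1478 counts per 1000000 UMIs (CPM) in explant neurogenic progenitors. A UMI of either gene was held by 563 of 682 of these cells, but also by 556 of 1372 explant cells annotated as amacrine. Explant cells annotated as retinal ganglion cells (RGCs) also held the amacrine gene *Tfap2b* at 411.1 CPM. Cells annotated as amacrine at P14 held *Lhx1* at 376.1 CPM and *Onecut1* at 90.8 CPM, which are genes of horizontal cells.

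*Sst* lies on chromosome 16 at 23889573 to 23890958 (GRCm38, GENCODE M21, minus strand) and has 2 exons, both with coding sequence. *Sstr2* lies on chromosome 11 at 113619342 to 113626028 (plus strand), and its 1107 coding bases sit in 1 of 2 exons. *Sstr1* lies on chromosome 12 at 58211772 to 58214444 (plus strand) and *Sstr5* on chromosome 17 at 25489875 to 25497288 (minus strand), each with its coding sequence in 1 exon. The libraries read the 3′ end of transcripts. The extent of the deletion in the *Sstr2* allele is not given in the sources used here, so counts of *Sstr2* cannot serve to check the genotype labels: a transcript that lacks part of the gene can still be counted at its 3′ end.

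A stretch of 30 bases ahead of the RefSeq transcription start is shown for the ligand and for the receptor with the most UMIs, because both hold the cyclic AMP response element, the site first defined in the somatostatin gene and bound by CREB. The sequences are RefSeq promoter windows of GRCm38.p6, in the direction of the gene, and capitals mark TGACGTCA, which reads the same on both strands. The *Sst* bases are chr16:23890874-23890903 on the minus strand and the *Sstr2* bases are chr11:113619258-113619287 on the plus strand.

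Sst: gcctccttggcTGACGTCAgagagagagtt

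Sstr2: ccaagctgccgTGACGTCAcgggcgggggc

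The element began 48 bases before the RefSeq start of *Sst* and 58 bases before that of *Sstr2*. The GENCODE model of *Sst* starts 114 bases further upstream than RefSeq's, so the stretch shown lies within that gene model, whereas the GENCODE start of *Sstr2* is 15 bases downstream of RefSeq's. Of the 6 genes, 4 matched a window by symbol, with 5 windows in all, and these 2 genes held the element. Among all 32851 windows of 300 bases, 588 (1.79%) held it. The match is a description of the sequence and says nothing on which factor acts there.

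*Sst* itself was nearly absent from the counts. In explants 5 UMIs were found in 5 of 5607 cells, or 0.0892% (95% exact binomial confidence interval 0.0290 to 0.208%, which covers counting error only). By dose, none fell in either explant at 0 nM, 1 fell in explant b at 5 nM, 1 in explant b at 50 nM and 3 in explant b at 500 nM. The cells were annotated as 2 of 1662 photoreceptors, 1 of 1372 amacrine cells, 1 of 1691 primary progenitors and 1 of 200 RGCs. These shares were 0.120%, 0.0729%, 0.0591% and 0.500%. The RGC share was highest but rested on 1 UMI, and its 95% exact binomial interval, 0.0127 to 2.75%, covered the others. At these counts no annotated cell type can be set apart. The RGC held 18 UMIs of RGC markers. The amacrine cell held 3 UMIs of amacrine markers and 3 of RGC markers. The primary progenitor held 7 UMIs of primary progenitor markers, 6 of neurogenic markers and 4 of RGC markers. The 2 photoreceptors held no UMI of RGC markers. At P14 a single *Sst* UMI was found, in a cell of heterozygous retina a. That cell was annotated as bipolar but held 130 UMIs of *Lyz2*, 21 of *Tyrobp* and 8 of the microglia markers *Cx3cr1* and *Csf1r*, against 1 UMI of bipolar markers.

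*Cort*, which encodes cortistatin, was also held by few cells. It had 18 UMIs in explants, 35 at P0 and 4 at P14, and every cell with *Cort* held a single UMI of it.

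*Sstr1* and *Sstr5* were also found only as single UMIs. *Sstr1*, a receptor known as an autoreceptor on somatostatin neurons, had 1 UMI in explants, in an amacrine cell at 0 nM with 10 UMIs of amacrine markers. At P14 it had 2 UMIs. The first was in a Müller glial cell of knockout retina a with 254 UMIs of Müller markers. The other was in a cell of heterozygous retina b annotated as amacrine, with 6 UMIs of amacrine markers and 10 of Müller markers. *Sstr5* had 2 UMIs in explants and 3 at P0, and all of these cells were annotated as primary progenitors. That type made up 1691 of 5607 explant cells and 2797 of 5706 P0 cells. The explant cells came from 0 nM a and 500 nM b, and the P0 cells from heterozygous retina b, which held 2, and knockout retina a. The cell of 0 nM a held 12 UMIs of primary progenitor markers and 17 of neurogenic markers. The cell of 500 nM b held 5 of each and 8 of photoreceptor markers. The P0 cells held 19, 24 and 40 UMIs of primary progenitor markers and 9, 13 and 4 of neurogenic markers. At these depths no level by dose or by genotype can be given for *Sst*, *Sstr1* or *Sstr5*, and none of them passed the filter on low counts in any test.

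*Sstr2* was the receptor with data in every library. In explants it had 457 UMIs in 283 cells, at P0 1535 UMIs in 396 cells and at P14 18 UMIs in 5 cells. Most of it was in neurogenic progenitors before P14, with 74.2% of its UMIs in the explants and 85.3% at P0. At P14 all 18 UMIs were in cells annotated as amacrine. The libraries were made separately, so the age, the culture and the library cannot be told apart in any comparison between them. Values over all P0 or P14 samples also pool the genotypes, whereas the explants were all wild type.

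In explants the *Sstr2* level was 113.1 ± 35.5 CPM (SD, n = 8 samples) in neurogenic progenitors, with values from 60.9 to 173.2. Amacrine cells followed at 8.21 ± 6.81 CPM, photoreceptors at 8.13 ± 3.24 and primary progenitors at 4.07 ± 4.23. The values of these 3 cell types overlapped between explants, whereas the lowest neurogenic value was above the highest of the others, 22.1 CPM. RGCs held 1 UMI in 200 cells.

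The same order was found at P0, where the means pool all genotypes. In neurogenic progenitors the wild-type retina alone was at 112.1 CPM. Neurogenic progenitors were at 243.5 ± 100.2 CPM (SD, n = 5 samples), amacrine cells at 13.0 ± 7.84, photoreceptors at 4.12 ± 2.55 and primary progenitors at 3.39 ± 1.73. Photoreceptors and primary progenitors were within their spread, and the amacrine values, 3.44 to 24.4 CPM, overlapped with both. RGCs were the deepest cells of the P0 library, at a median of 24853 UMIs, and 1 of 85 held an *Sstr2* UMI. Cell types were drawn from clusters of these same cells, so these levels are a description, with no test.

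**Figure D1:**
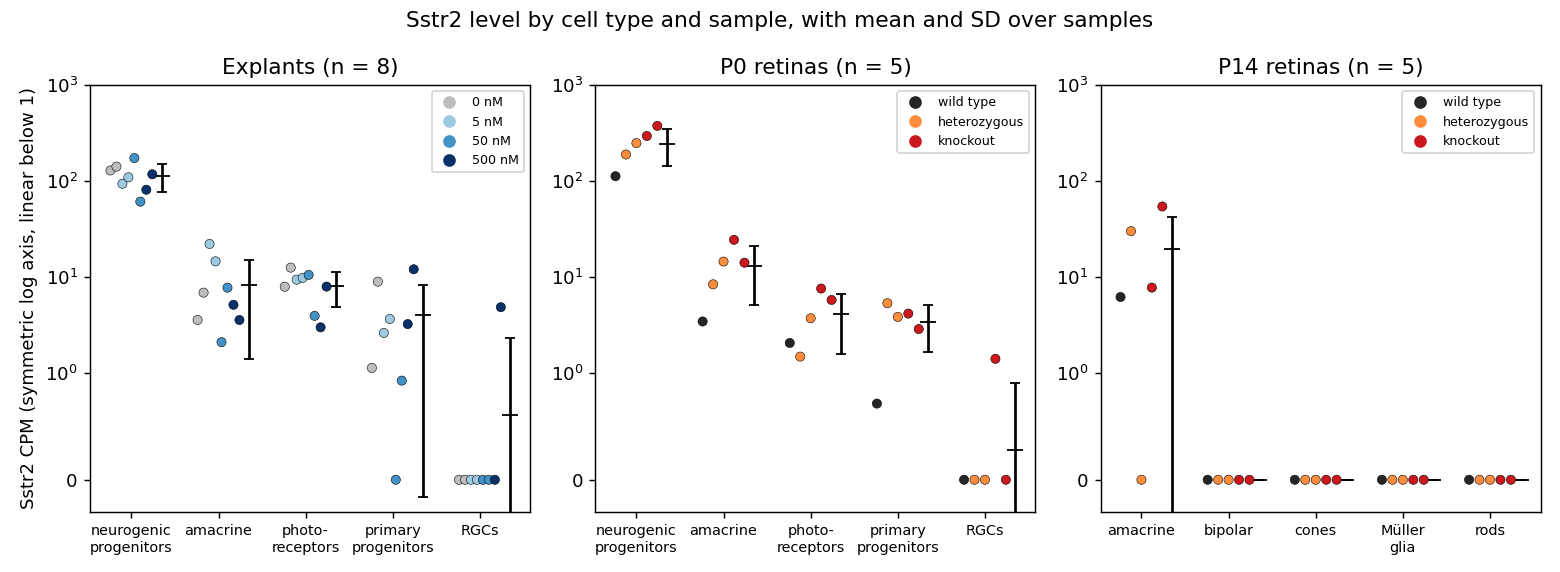
*Sstr2* level in CPM (symmetric log axis, linear below 1) for every sample and cell type, with dose or genotype in color, and the mean with its SD over samples to the right of each group; SD bars are cut off at the lower edge of the panel. Neurogenic progenitors sit between 60.9 and 173.2 CPM in explants and between 112.1 and 374.9 CPM at P0, above every other cell type, and at P14 only amacrine cells leave 0.

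The share of cells with an *Sstr2* UMI depends on depth, so each cell was thinned to 2000 UMIs. In neurogenic progenitors 16.0% of explant cells and 24.3% of P0 cells then held *Sstr2*, against 27.3% and 42.6% as counted. After thinning, 2 of 682 explant neurogenic progenitors were left out as too shallow and 0 of 669 at P0. The P0 shares pool all genotypes, and those of neurogenic progenitors by genotype are given further on. RGCs had 0.208% in explants and 0.0522% at P0, each on a single UMI, with 95% exact binomial intervals as counted that reached 2.75% and 6.38%. Amacrine cells had 1.32% and 2.03%, photoreceptors 1.40% and 0.677% and primary progenitors 0.872% and 0.360%. At these counts of RGCs, no difference from RGCs can be read in these shares for these 3 cell types. In CPM, P0 RGCs ran from 0 to 1.41 over the retinas. The lowest P0 values were 3.44 CPM in amacrine cells and 1.48 in photoreceptors, without overlap, and 0.714 in primary progenitors, with overlap. In explants RGCs ran from 0 to 4.85 CPM and overlapped with all 3 cell types.

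Cells with *Sstr2* also differed in how many UMIs they held. In neurogenic progenitors the mean over positive cells was 1.82 UMIs in explants, with a highest value of 8, and 4.59 at P0, with a highest value of 23. Outside the neurogenic progenitors the mean at P0 was 1.96 in amacrine cells, 1.45 in photoreceptors and 2.50 in primary progenitors. The explants were all wild type, whereas these P0 values pool all genotypes. In neurogenic progenitors of the wild-type P0 retina alone the highest value was 8. The median depth of a neurogenic progenitor was 4526.5 UMIs in explants and 6775 at P0. No explant cell held more than 2499 genes, whereas P0 cells held up to 7324. The parts of genotype, depth and this limit on genes in the difference were not tested.

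Within neurogenic progenitors, the cells with and without *Sstr2* were compared for markers of the neurogenic state. At P0, 74.4% of the 285 positive cells held *Neurog2*, against 39.8% of the 384 others, and 70.9% against 30.7% held *Atoh7*. *Hes6*, a factor that promotes neuronal differentiation, was at 2007 CPM against 1273 CPM. *Crx*, a photoreceptor factor, ran the other way, at 22.6 CPM against 54.6 CPM. The explants gave the same directions, with *Neurog2* in 60.2% against 35.5% of cells and *Crx* at 68.5 against 126.7 CPM. *Gadd45g* was lower in positive cells in both libraries, at 209.2 against 283.6 CPM at P0 and 228.7 against 310.9 CPM in explants. Positive cells were deeper, with medians of 9308 against 6337 UMIs at P0 and 4777 against 4428.5 in explants, and the part of depth in the shares of cells was not tested.

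The *Sstr2* counts of other cell types were split in the same way. Among P0 primary progenitors, *Sstr2* was at 28.8 CPM in the 223 cells with a UMI of *Neurog2* or *Atoh7* and at 0.865 CPM in the 2574 cells without one, at medians of 8719 and 8760 UMIs. The first value was higher in 5 of 5 retinas, though in the wild type it rested on 1 UMI. In P0 photoreceptors the levels were 6.80 and 1.85 CPM, on 20 and 9 *Sstr2* UMIs, at medians of 6264.5 and 4028 UMIs per cell. The level was also higher with a neurogenic marker in 5 of 5 retinas, on 2 to 8 UMIs against 0 to 4 in each. P0 amacrine cells did not show this split: *Sstr2* was at 11.2 CPM in the 353 cells with *Neurog2* or *Atoh7* and at 13.7 CPM in the 660 without, and the first was higher in 3 of 5 retinas. In explants the pooled level with and without a marker was 13.4 and 2.49 CPM in primary progenitors, on 20 and 15 UMIs. Of those 20 UMIs, 13 came from explant b at 500 nM. The levels were 9.90 and 6.67 CPM in photoreceptors and 9.78 and 4.81 CPM in amacrine cells. The marker-positive side was higher in 5 of 8 explants for each of these types, and primary progenitors of explant a at 50 nM had 0 CPM on both sides. These differences were not tested.

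By the rule for cells with a UMI, the genes with the largest ratio in *Sstr2*-positive over other neurogenic progenitors in explants were *Cdkn1c*, *Fam183b*, *Pcdh17*, *Oma1* and *Rsph1*, with ratios of 4.64, 3.92, 3.88, 3.71 and 3.59. *Cdkn1c* encodes a cyclin-dependent kinase inhibitor, and 38.6% of its UMIs in these cells came from 1 cell. *Pcdh17*, a protocadherin, rested on 374 UMIs, of which 1 cell gave at most 3.21%. At P0 the genes were *Cryba1*, *Arhgef39*, *1700001L19Rik*, *Crip3* and *Elfn1*. For *Cryba1*, a lens crystallin gene, 98.3% of the UMIs came from 1 cell, while *Elfn1* was at 33.1 against 3.35 CPM over 92 UMIs with at most 5.43% from 1 cell. These genes were chosen by the values given and carry no test. For *Sst*, *Sstr1* and *Sstr5* the same rule rests on 1 to 3 cells, and only the P14 cell with *Sst* and *Lyz2* is described above.

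The genes most like *Sstr2* across cell types were found by Pearson's r of log2(CPM + 1) over sums per sample and cell type. Over 35 sums in explants these were *3110035E14Rik* (r = 0.91), *Rbpj* (r = 0.90), the nuclear mediator of Notch signaling, and *Pkib* (r = 0.89), an inhibitor of cyclic AMP-dependent protein kinase. Over 21 sums at P0 these were *Miat* (r = 0.96), *Vdac2* (r = 0.93) and *Nxn* (r = 0.93). The sums of 1 library share cells, depth and clustering, and the 3 genes differed between the libraries.

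Agonist dose was compared next, since the explants were treated through Sstr2 itself. In neurogenic progenitors the *Sstr2* level was 128.7 and 141.1 CPM at 0 nM, 93.6 and 109.1 at 5 nM, 173.2 and 60.9 at 50 nM and 81.1 and 117.4 at 500 nM. The explants at 500 nM were below both at 0 nM, but the 2 explants at 50 nM were the highest and the lowest of all 8. By edgeR's quasi-likelihood test the log2 fold change at 500 against 0 nM was -0.42 (standard error 0.26, adjusted p = 0.964). In this comparison 6 of 6072 genes, or 0.0988%, passed the threshold, and *Sstr2*, the 1 member tested, did not.

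Over all cells *Sstr2* was at 19.1 and 29.1 CPM at 0 nM, 21.8 and 23.7 at 5 nM, 24.7 and 11.5 at 50 nM and 14.3 and 22.6 at 500 nM. The groups at 0 and 500 nM overlapped. A sum over all cells cannot tell fewer neurogenic cells from less *Sstr2* RNA per cell. The log2 fold change was -0.30 (standard error 0.29, adjusted p = 0.764 by edgeR), where 22 of 11389 genes, or 0.193%, were called.

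The course over all 4 doses was tested by correlation with log10 of the dose plus 1, over all 2520 arrangements of the 8 explants, two-sided, in a family of 2. Pearson's r for neurogenic progenitors was -0.30, with an exact permutation p of 0.473 and the same value after adjustment. Spearman's rank correlation there was -0.39, with an exact permutation p of 0.361 (0.422 adjusted). For the sums of all cells, Pearson's r came to -0.45 with an exact permutation p of 0.268 (0.473 adjusted). Spearman's rank correlation came to -0.34, with an exact permutation p of 0.422 before and after adjustment. The 2 explants farthest from the median dose on this scale were both explants at the highest dose. Without them, Pearson's r over the lower doses alone became -0.19 in neurogenic progenitors (p = 0.700, exact permutation). Over all cells it became -0.46 (p = 0.367, exact permutation). These values leave the highest dose out altogether, so they describe a shorter course. All signs were negative and none of these correlations passed the threshold.

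The other cell types of the explants held few *Sstr2* UMIs. In amacrine cells the level in CPM was 3.58 and 6.88 without agonist, 22.1 and 14.6 with 5 nM, 2.10 and 7.74 with 50 nM, then 5.14 and 3.57 with 500 nM. The explants at 5 nM were highest, and the other doses overlapped. Photoreceptors ran from 2.99 to 12.5 CPM with the lowest value at 500 nM and the highest at 0 nM, but the explants at these doses overlapped. Primary progenitors were lowest at 50 nM, at 0 and 0.929 CPM, and highest in explant b at 500 nM, with 18 UMIs.

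The number of UMIs per positive neurogenic progenitor ran from 1.42 to 2.16 over the explants. Cells with 5 or more *Sstr2* UMIs made up 3.60% and 4.62% of neurogenic progenitors at 0 nM, 0% and 2.19% at 5 nM, 2.17% and 0% at 50 nM and 1.18% and 0% at 500 nM. These shares rest on 0 to 4 cells per explant.

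The genotype series at P0 gave a graded pattern in *Sstr2*. In neurogenic progenitors the level was 112.1 CPM in the wild type. Heterozygous retinas a and b had 188.6 and 247.8 CPM and knockout retinas a and b had 294.2 and 374.9 CPM, so the genotypes did not overlap. By edgeR, knockouts exceeded the wild type by 1.57 on the log2 scale (standard error 0.19) at an adjusted p of 0.00412, with 3 of 8984 genes called, or 0.0334%. Tested as a line over the number of lost alleles in all 5 retinas, *Sstr2* rose by 0.75 on the log2 scale per allele (standard error 0.089, adjusted p = 5.69e-04 by edgeR), and 2 genes, or 0.0223%, were called. The heterozygous and knockout retinas alone differed by 0.62 (standard error 0.14), which missed the threshold (adjusted p = 0.840 by edgeR). There was a single wild-type sample, and it decides every value against wild type.

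**Figure D2:**
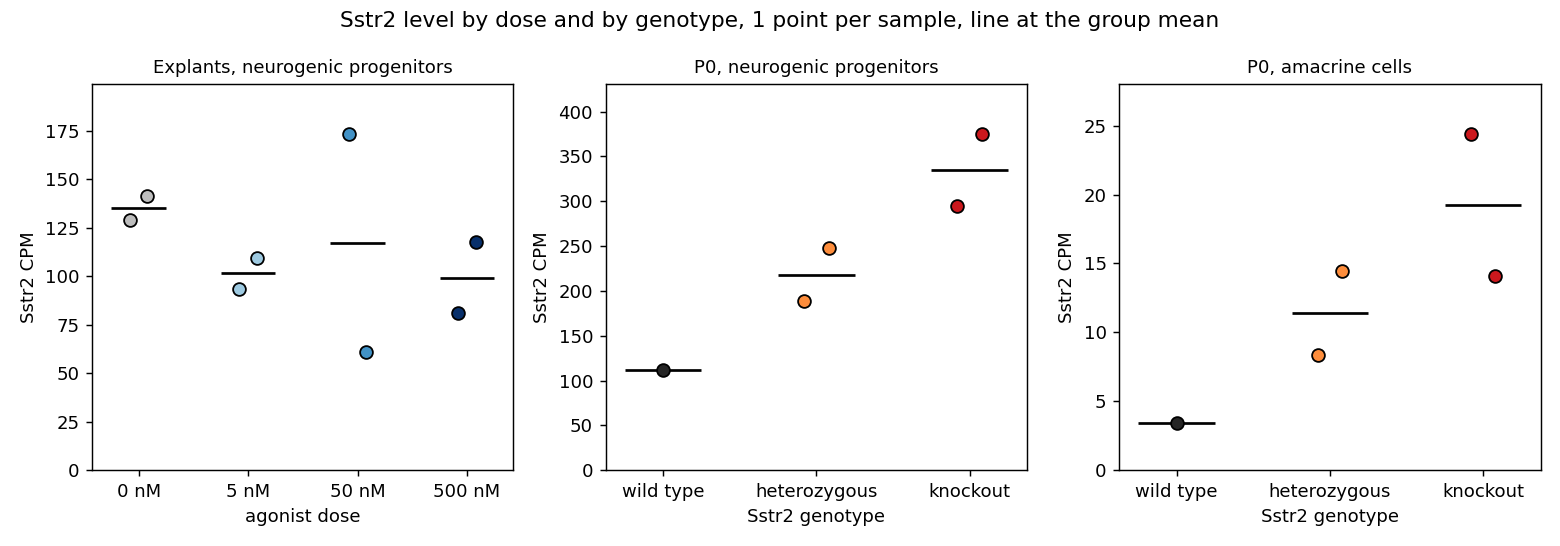
*Sstr2* level in CPM in explant neurogenic progenitors by agonist dose and in P0 neurogenic progenitors and amacrine cells by *Sstr2* genotype, 1 point per sample and a line at each group mean. The explants at 50 nM span 60.9 to 173.2 CPM, while the P0 neurogenic values run from 112.1 in the wild type to 374.9 CPM in a knockout.

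The content of the positive cells followed the same order. Positive neurogenic progenitors of the wild type held 2.89 UMIs on average, those of the heterozygous retinas 3.90 and 4.30, and those of both knockout retinas 5.73. Cells with 5 or more UMIs were 8 of 46 positive cells in the wild type, or 17.4%. They were 14 of 50 (28.0%) and 28 of 71 (39.4%) in the heterozygous retinas and 26 of 52 (50.0%) and 31 of 66 (47.0%) in the knockouts. The 2 knockouts were above all other retinas, the wild type was below all, and these counts were not tested. The positive cells of the knockouts were not the deepest, at medians of 8393.5 and 9650.5 UMIs against 9944 in the wild type and 9799 and 8992 in the heterozygous retinas. The share of neurogenic progenitors with any *Sstr2* UMI was less clearly ordered: thinned to 2000 UMIs it was 14.6% in the wild type, while heterozygous retinas had 21.2% and 26.1% and knockouts 26.1% and 34.9%.

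**Figure D3:**
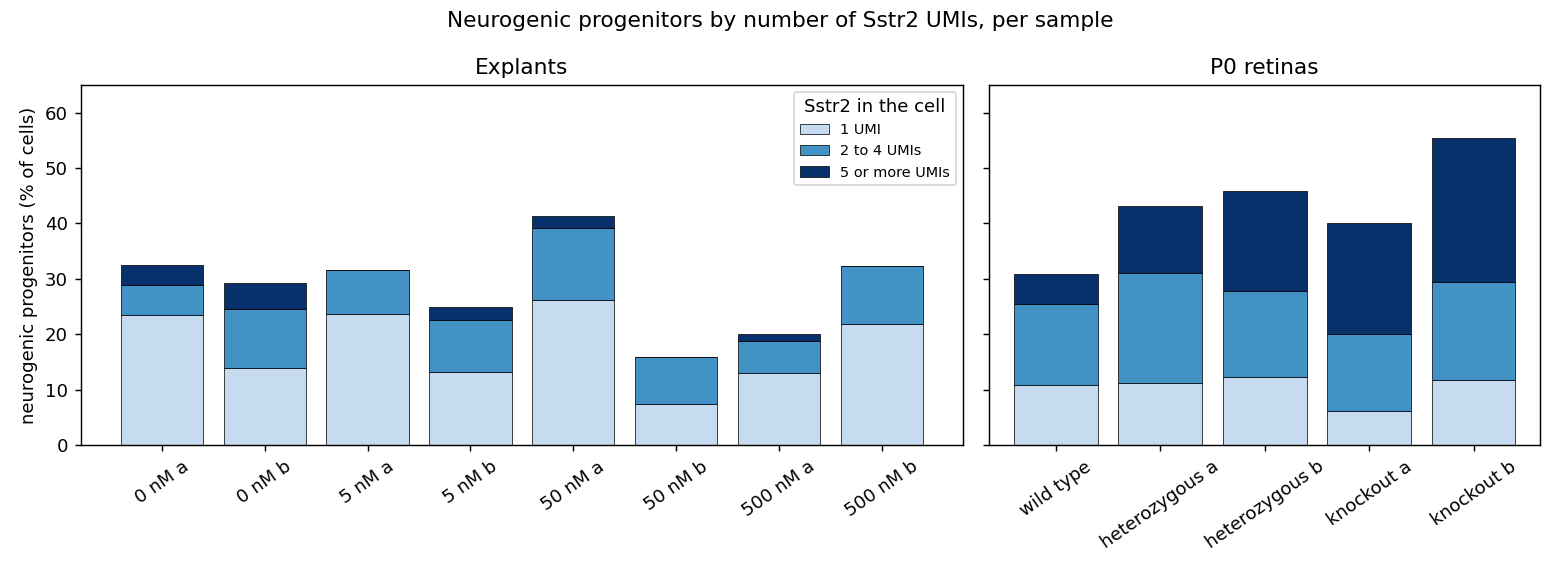
Share of neurogenic progenitors (% of cells) with 1, 2 to 4, or 5 or more *Sstr2* UMIs, per explant and per P0 retina, as counted without thinning. The darkest class, 5 or more UMIs, is 0 to 4.62% of cells in explants and is 5.37% in the wild-type retina, 12.1% and 18.1% in the heterozygotes and reaches 26.1% in knockout retina b.

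The same order was looked for outside the neurogenic progenitors. In P0 amacrine cells *Sstr2* was at 3.44 CPM in the wild type (6 UMIs). Heterozygous retinas had 8.39 and 14.5 CPM (12 and 27 UMIs), and knockouts had 24.4 and 14.1 CPM (36 and 25 UMIs). In knockout retina a, 1 cell held 12 of the 36 UMIs. The 3 amacrine cells with 5 or more *Sstr2* UMIs at P0 were all in that retina. The wild type was lowest, and the second knockout retina lay within the heterozygous values. The log2 fold change was 2.45 (standard error 0.58) with an adjusted p of 0.463 by edgeR, where 1 of 10373 genes, or 0.00964%, was called. Of 10 alternatives, 8 missed the threshold, DESeq2 and the line over lost alleles among them (adjusted p = 1.00 in both). It was passed without a filter on low counts (adjusted p = 0.00201 by edgeR) and without knockout retina b (adjusted p = 5.31e-04 by edgeR), which leaves 1 knockout against 1 wild-type sample with the spread taken from the heterozygous pair.

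In P0 photoreceptors *Sstr2* was at 2.06 CPM in the wild type, with 1.48 and 3.72 CPM in heterozygotes and 7.58 and 5.77 CPM in knockouts, on 3 to 8 UMIs each. Both knockouts were above the other 3 retinas (two-sided exact permutation p = 0.1, the smallest that 2 against 3 retinas can give). In P0 primary progenitors the level was 0.714 CPM in the wild type, with 5.34 and 3.84 CPM in heterozygotes and 4.16 and 2.87 CPM in knockouts. These groups overlapped (exact permutation p = 0.9), and the difference of 0.218 CPM turned to -1.07 without the wild type and -0.42 without knockout retina a. For neurogenic progenitors the same test gave a difference of 151.7 CPM (exact permutation p = 0.2) and for amacrine cells 10.5 CPM (exact permutation p = 0.3). Against the single wild-type sample alone, edgeR gave the knockouts a log2 fold change of 1.63 (standard error 1.02) in photoreceptors. In primary progenitors it was 2.23 (standard error 0.67), and neither passed the threshold.

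Over all P0 cells *Sstr2* was at 14.1 CPM in the wild type, with 22.3 and 33.5 CPM in heterozygotes and 41.0 and 43.3 CPM in knockouts. The genotypes again did not overlap. The log2 fold change was 1.55 (standard error 0.25), and its unadjusted p of 4.90e-04 became 0.513 after adjustment by edgeR. By edgeR 0 of 13721 genes, or 0%, were called, with 698 at an unadjusted p under 0.05, and DESeq2 called 6. *Sstr2* was among those of DESeq2 (adjusted p = 7.50e-04), and by edgeR it also passed without heterozygous retina a (adjusted p = 0.00973) or b (adjusted p = 0.00782), where the spread comes from the knockout pair alone.

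The overlap of *Sstr2* with *Neurog2* was also counted per retina. Over all P0 cells with an *Sstr2* UMI, *Neurog2* was held by 73.7% in the wild type, by 64.3% and 64.9% in heterozygotes and by 50.0% and 56.4% in knockouts. Among *Neurog2* cells, *Sstr2* was held by 20.6% in the wild type, by 26.3% and 28.8% in heterozygotes and by 25.7% and 30.3% in knockouts. The first share was lowest in the knockouts, with no overlap between genotypes, the second overlapped, and neither was tested. In explants the first share ran from 31.6 to 52.6%, with no order by dose.

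At P14 *Sstr2* was down to 18 UMIs. The 68 amacrine cells held all of them, in 5 cells, or 7.35% (95% exact binomial confidence interval 2.43 to 16.3%). No UMI was counted in 2271 rods, which allows a share of up to 0.132% of cells with a UMI (3 cells of the total, for counting error only). The limit was 0.519% for 578 bipolar cells, 1.13% for 266 Müller glia and 2.61% for 115 cones. Müller glia and cones were deeper than amacrine cells, with medians of 15108 and 10245 against 4512.5 UMIs. The amacrine cells with *Sstr2* were deeper still, with a median of 27688 UMIs against 4481 in those without. Only 4 cells of the other types were deeper than 27688 UMIs, and the part of depth in their zero counts was not tested. Thinned to 2000 UMIs, the share in amacrine cells was 2.85%, with 5 cells left out.

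The 5 cells were not of a single kind. The first, in knockout retina b, held 12 of the 18 UMIs among 27688 UMIs. It held 88 UMIs of *Tfap2b*, 20 of *Gad1* and 9 of *Slc32a1*, from the list of amacrine markers, and no UMI of *Lhx1*, *Onecut1* or *Calb1*. The second, in the wild type, held 2 UMIs in a shallow cell of 2430 UMIs with 6 UMIs of *Tfap2b*. The other three held all 3 horizontal cell markers. They were a cell of heterozygous retina a with 2 *Sstr2* UMIs, 56 UMIs of *Lhx1* and 181 of *Calb1*, a cell of knockout retina b with 1 *Sstr2* UMI, 70 of *Lhx1* and 275 of *Calb1*, and a cell of knockout retina a with 1 *Sstr2* UMI, 2 of *Lhx1* and 10 of *Calb1*. In the same order they also held 96, 94 and 8 UMIs of *Tfap2b* and 8, 12 and 1 of *Slc32a1*. Those 2 genes therefore do not tell the cells apart. *Gad1* had no UMI in these cells and 1 in the wild-type cell.

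In all, 9 of the 68 cells held the 3 horizontal cell markers, at a median depth of 59117 UMIs, and 3 of these held *Sstr2*, at 9.81 CPM. Of the 50 cells with none of the markers, at a median of 4194.5 UMIs, 2 held *Sstr2*, at 47.9 CPM. Without the cell with 12 UMIs, left out after seeing the data, this was 7.56 CPM, on 2 UMIs in 1 cell. The 9.81 CPM of the cells with all 3 markers rested on 4 UMIs, so no order of these levels can be read. The 9 cells with 1 or 2 of the markers held none. *Chat*, *Slc18a3* and *Slc5a7*, genes of starburst amacrine cells, had no UMI in any of the 5 cells. The gene with the largest ratio in the 5 cells over the other 63 was *Cartpt*, a neuropeptide gene, at 1087 against 67.8 CPM, and 91.2% of its UMIs came from 1 cell. *Ly6e*, *Thrsp*, *Lhx1os* and *Slc12a2* followed with ratios of 6.10, 4.64, 3.41 and 2.99, and 1 cell gave 55.4 to 95.9% of their UMIs.

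**Figure D4:**
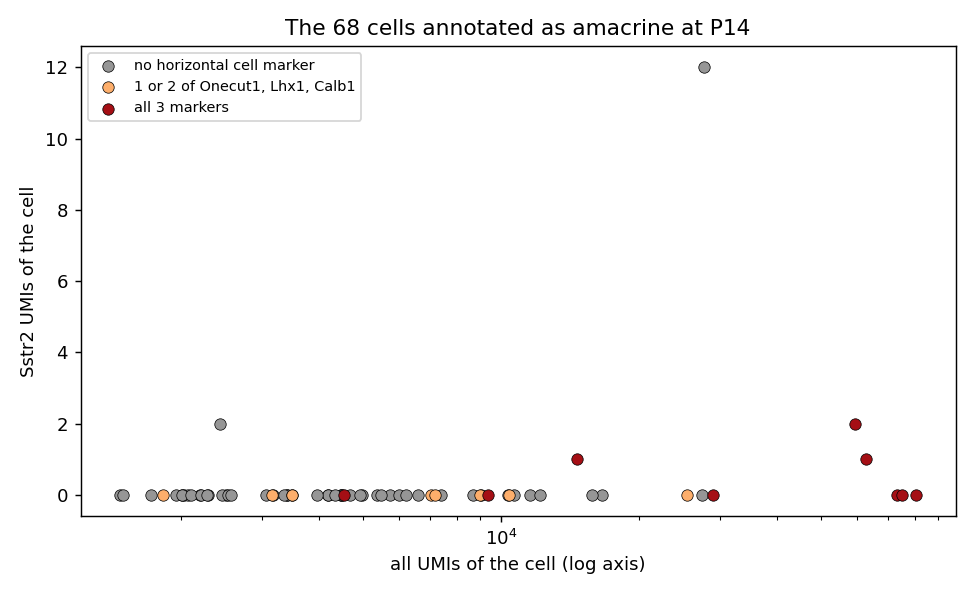
*Sstr2* UMIs against all UMIs (log axis) in each of the 68 cells annotated as amacrine at P14, colored by how many of the horizontal cell markers *Onecut1*, *Lhx1* and *Calb1* had a UMI. A single cell without these markers holds 12 UMIs, and 3 of the 4 other positive cells hold all 3 markers.

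By genotype, *Sstr2* in P14 amacrine cells was at 6.19 CPM in the wild type (2 UMIs in 15 cells). Heterozygotes had 30.1 and 0 CPM (2 and 0 UMIs in 4 cells each), and knockouts had 7.75 and 54.2 CPM (1 and 13 UMIs in 22 and 23 cells). The groups overlapped, with a difference of 18.9 CPM between knockouts and the others (two-sided exact permutation p = 0.5). Without the cell with 12 UMIs, knockout retina b fell to 4.71 CPM and the difference turned to -5.85 CPM (exact permutation p = 0.9). Without knockout retina b altogether it was -4.33 CPM. *Sstr2* did not pass the filter of edgeR in amacrine cells, where 0 of 4715 genes, or 0%, were called, with 88 at an unadjusted p under 0.05 and 0 by DESeq2.

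Over all P14 cells *Sstr2* had 2 UMIs in the wild type, with 2 and 0 in heterozygotes and 1 and 13 in knockouts. By edgeR the knockouts stood 2.64 above the wild type on the log2 scale (standard error 1.59) at an adjusted p of 1.00, with 3 of 12545 genes called, or 0.0239%. The rise of *Sstr2* with lost alleles at P0 was called in neurogenic progenitors, a cell type that the P14 annotation did not hold. No such rise was detectable in the P14 cells at this depth, and the difference between the ages was not tested.

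The partners of the pathway were counted as a list of 34 genes: the ligand *Cort*, the prohormone convertases and *Cpe* that cut precursors, the Gi/o subunits, adenylyl cyclases, GIRK and calcium channels, arrestins and kinases that desensitize receptors, and the phosphatases *Ptpn6* and *Ptpn11*. In explants 26 of them could be tested over all cells and 9 in neurogenic progenitors. At P0 30 could be tested over all cells, 12 in neurogenic progenitors and 24 in amacrine cells. At P14 30 could be tested over all cells and 18 in amacrine cells. None of them passed the threshold in these comparisons by edgeR, with 2 and 1 at an unadjusted p under 0.05 in explants, 3, 1 and 0 at P0 and 0 and 0 at P14, and none passed by DESeq2. The counts over all genes tested at that unadjusted p follow in the same order of comparisons. They were 1246 of 11389 and 318 of 6072 in explants. At P0 they were 698 of 13721, 440 of 8984 and 427 of 10373, and at P14 247 of 12545 and 88 of 4715.

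The medians of the list were as follows. In explants the median log2 fold change was -0.098 over all cells, against 0.0035 over all genes tested, and 0.13 in neurogenic progenitors, against -0.0027. At P0 it was 0.043 against 0.0024 over all cells and -0.065 against 0.00033 in neurogenic progenitors. In P0 amacrine cells it was -0.0096 against 0.0076. At P14 it was 0.096 against 0.0093 over all cells and 0.38 against 0.027 in amacrine cells, where 13 of 18 were above 0. Single partners reached 1.91 over all P0 cells, 2.23 in P0 neurogenic progenitors and 2.11 in P14 amacrine cells, none past the threshold. Nearest to the threshold was *Gnai2*, a Gi alpha subunit, at a mean of 483 CPM at 500 nM against 354.4 CPM at 0 nM over all explant cells (log2 fold change 0.45, standard error 0.11, adjusted p = 0.126 by edgeR). *Gnai2* passed without the filter on low counts, as 1 of 33 partners, where 288 of 17872 genes, or 1.61%, were called, against 0.193% with the filter. The fit without 500 nM a leaves 1 explant at that dose. More genes were called there than in the main fit, *Gnai2* and the adenylyl cyclase *Adcy1* among them.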

How the data were processed

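The authors deposited UMI counts, as whole numbers with no normalization, from 10x Chromium 3′ libraries. The submitters' processing notes name Cell Ranger 3.1.0, Seurat version 3 and build mm10. The authors assigned cells to samples with deMULTIplex and annotated cell types from clusters. They also deposited SCT values, each a natural log of an SCTransform-corrected count plus 1, which served as an alternative. Filters on cells are not given in the sources used here. Explant cells held 1001 to 2499 genes, P0 cells 1013 to 7324 and P14 cells 801 to 8002. Dose or genotype of each cell was taken from the condition the authors recorded for it. No further doublet removal was made here.

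Sums of counts over the cells of each sample, by cell type and over all cells, entered quasi-likelihood tests of edgeR 4.0.16 (R 4.3.3) after TMM and filterByExpr, with Benjamini-Hochberg adjustment across all genes tested and a threshold of 0.05. Each library was fitted with all of its groups, where a single wild-type sample adds nothing to the dispersion. The standard error given with an edgeR value is its absolute log2 fold change divided by the square root of the quasi-likelihood F statistic. The script was tested on simulated data. DESeq2 1.42.0 was an alternative. Samples held 1266730 to 10793649 UMIs each. Single values were compared by exact permutation over samples. Thinned shares are expected values for 2000 UMIs drawn without replacement, and shallower cells were left out. CPM compares 1 gene between samples, never genes with each other. Likeness used genes and sums with at least 50 UMIs and 20 cells and a pseudocount of 1. Named genes were the 6 members, partners past the threshold, the 3 genes most like a member and the 5 genes with the largest ratio in its positive cells; marker genes came from lists. *Tyrobp*, *Gnai2* and *Adcy1* were named after their values were seen, and of the genes led by single *Sst*, *Sstr1* or *Sstr5* cells only *Lyz2* is named. The members and lists were chosen with earlier results of these data known. Other computations used Python with scipy and matplotlib.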

Additional observations from a re-analysis of the deposited data

How the results depend on the processing

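Alternatives were edgeR with DESeq2's size factors, DESeq2, no filter on low counts, other contrasts, mean SCT values, other thinning and leaving out each sample. The *Sstr2* log2 fold change in explants stayed below 0 and short of the threshold in 12 of 12 alternatives, over all cells (-0.66 to -0.03 without 1 explant) and in neurogenic progenitors (-0.72 to -0.20 without 1 explant). The dose correlations kept their sign and missed the threshold in 10 of 10. At P0 the neurogenic value kept its call in 9 of 10 (1.40 to 1.72 without 1 retina), but all 9 use the same single wild-type sample. Without a knockout retina, 1 knockout stands against 1 wild-type sample, with the spread taken from the heterozygous pair. Knockout against heterozygous, the contrast that does not use the wild type, gave 0.62 and missed the threshold. Over all P0 cells DESeq2 gave 1.55 with an adjusted p of 7.50e-04, and leaving out 1 retina gave 1.52 to 1.58, with adjusted p-values of 0.00782 to 0.968, the lowest without heterozygous retina b and then a (0.00973). In P0 amacrine cells the value without the filter was 2.43 and without 1 retina 2.03 to 2.80. Without the wild type no contrast against it was possible, and without knockout retina b *Sstr2* did not pass the filter at P14. The P14 value over all cells stayed short of the threshold (2.63 to 3.53 without 1 retina). The genotype difference turned without 1 retina in P0 primary progenitors (-1.07 to 1.24 CPM) and P14 amacrine cells (-4.33 to 42.1 CPM), and in the latter also with mean SCT values (-6.70e-04) and without the cell with 12 UMIs (-5.85 CPM), an alternative chosen after seeing the data. Shares of positive cells were 20.9% at 3000 UMIs and 27.3% without thinning in explant neurogenic progenitors, 42.6% without thinning at P0 and 7.35% without thinning in P14 amacrine cells. Counts of genes called moved by over 1.5 times: from 22 to between 0 and 322 over all explant cells, 6 to between 0 and 8 in explant neurogenic progenitors, 3 to between 1 and 39 in P0 neurogenic progenitors, 0 to between 0 and 17 over all P0 cells, 1 to between 0 and 62 in P0 amacrine cells and 3 to between 0 and 14 over all P14 cells; the cause was not tested. No paired analysis was possible because the samples carry barcodes but no replicate numbers shared between groups. Depth limits every statement on *Sst*, *Sstr1*, *Sstr5* and P14.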
